A study of Mus musculus with 6 samples.

Results

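*Akap12*, *Prrx1*, *Mcc* and *Abtb2* are 4 of the 17152 genes tested between *Pax7WT* and *Pax7KR* satellite cells. They were picked by symbol for a small unadjusted p-value and for counts that, scaled to library size, did not overlap between the genotypes. Their differences between genotypes, and the p-values and calls that go with them, are therefore given below as a description and not as independent tests. *Akap12* and *Abtb2* were higher in *Pax7KR* satellite cells, by 1.34-fold and 1.70-fold, and *Prrx1* and *Mcc* were lower, by 1.31-fold and 1.25-fold. All 4 were detected in the bulk RNA of the sorted cells. Their mean levels ran from 2.86 to 39.0 TPM in *Pax7WT* and from 4.69 to 32.2 TPM in *Pax7KR*. TPM is the share of transcripts, a level that allows for transcript length.

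Satellite cells are the resident stem cells of skeletal muscle, which lie quiescent beneath the basal lamina of the myofiber until injury calls on them. PAX7, the transcription factor that marks and maintains them, binds DNA through a paired domain and a homeodomain, and acetylation of its lysines is one way in which its activity is set. *Pax7KR* mice were made by CRISPR-Cas9 editing and are homozygous for arginine, which cannot be acetylated, in place of 1 acetylated lysine of PAX7. *Pax7WT* mice are wild-type littermates, both genotypes have the C57BL/6J strain background, and the mice were young adults without muscle injury. Hindlimb cells were sorted as α7-INTEGRIN+ and CD34+ and as negative for CD31, CD11b, SCA-1 and CD45, and 15 ng of RNA entered each of 3 directional libraries per genotype, described as biological replicates. The mutation is present in every cell of the mouse, so the sorted cells had carried it throughout development.

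The 4 members act in different compartments. AKAP12, also called gravin, is a scaffold under the plasma membrane that holds protein kinase A, protein kinase C and calcineurin together. PRRX1 is a paired-related homeodomain transcription factor of limb and connective tissue mesenchyme that is known for promoting the epithelial-mesenchymal transition. MCC, named for its mutation in colorectal cancer, is a coiled-coil protein that binds the polarity protein SCRIB and dampens β-catenin signalling. ABTB2 carries ankyrin repeats and BTB domains, and proteins with a BTB domain often present substrates to the CUL3 ubiquitin ligase.

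The libraries held 17822367 to 27908054 estimated reads each. *Pax7* itself was present in every library, at 511 to 590 TPM in *Pax7WT* and 515 to 584 TPM in *Pax7KR*. Since the edit changes 1 amino acid, this level does not check the genotype labels. The summed TPM of 11 satellite cell markers was 5207 to 5803 in *Pax7WT* and 5810 to 6203 in *Pax7KR*, without overlap. Of the 11 markers, 0 had an unadjusted p under 0.05. Immune markers summed to 17.1 to 23.7 TPM over all 6 libraries, with *Cd3e* at 0 throughout, and 2 of the 9 tested had an unadjusted p under 0.05, *Cd79a* with a log2 fold change of -0.58 and *C1qa*, below 1 TPM in every library, with one of 2.62. Myofiber markers summed to 86.4 to 106.5 TPM. The 10 immediate early (dissociation) genes summed to 13570 to 25710 TPM in *Pax7WT* and 20540 to 23470 TPM in *Pax7KR*. Their median log2 fold change was -0.005. *Pax7WT* replicate 2 had the lowest sum and the fewest reads, and each member's scaled count was lowest there among the *Pax7WT* libraries. Without it the log2 fold change was 0.39 for *Akap12*, -0.44 for *Prrx1*, -0.35 for *Mcc* and 0.67 for *Abtb2*. The part of dissociation in these values was not tested.

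By edgeR, 0 of the 17152 genes (0%) passed an adjusted p of 0.1, and 803 genes (4.68%) had an unadjusted p under 0.05. The smallest adjusted p was 0.302. The 4 members had unadjusted p-values of 0.000126 for *Akap12*, 0.000194 for *Prrx1*, 0.00028 for *Mcc* and 0.000335 for *Abtb2*, at ranks 5, 6, 9 and 12 of all genes, and their adjusted p-values were 0.432 to 0.445. No numeric threshold was part of the choice, and 8 other genes had a p-value as small as that of *Abtb2* or smaller. The normalised counts of the genotypes did not overlap for 1773 genes (10.3%), 882 of them higher (5.14%) and 891 lower (5.19%) in *Pax7KR*. The biological coefficient of variation is the replicate spread that remains after counting error. It was 8.26% for *Akap12*, 8.14% for *Prrx1*, 7.42% for *Mcc* and 14.4% for *Abtb2*, and its median over all genes was 12.9%. A choice by small p-value favours genes with a small spread. For the size of the log2 fold change, 16.9% of the tested genes were further from 0 than *Akap12*, 18.5% than *Prrx1*, 21.6% than *Mcc* and 7.91% than *Abtb2*.

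Levels were compared between the members as TPM. In *Pax7WT* the order was *Prrx1* at 39.0 ± 4.06 TPM, *Mcc* at 17.7 ± 0.336, *Akap12* at 11.1 ± 0.788 and *Abtb2* at 2.86 ± 0.614 (SD, n = 3), and no 2 neighbours in this order overlapped. In *Pax7KR* it was *Prrx1* at 32.2 ± 4.33 TPM, *Akap12* at 15.6 ± 1.34, *Mcc* at 14.6 ± 0.810 and *Abtb2* at 4.69 ± 0.547 (SD, n = 3). There the ranges of *Akap12* (14.8 to 17.1 TPM) and *Mcc* (14.0 to 15.5 TPM) overlapped, so their order was not resolved. By mean TPM over all libraries, 74.5% of the tested genes lay below *Prrx1*, 56.2% below *Mcc*, 52.3% below *Akap12* and 35.1% below *Abtb2*. The homeodomain factor was therefore among the better expressed genes in the bulk RNA of the sorted cells and *Abtb2* in the lower part of the range.

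**Figure D1:**
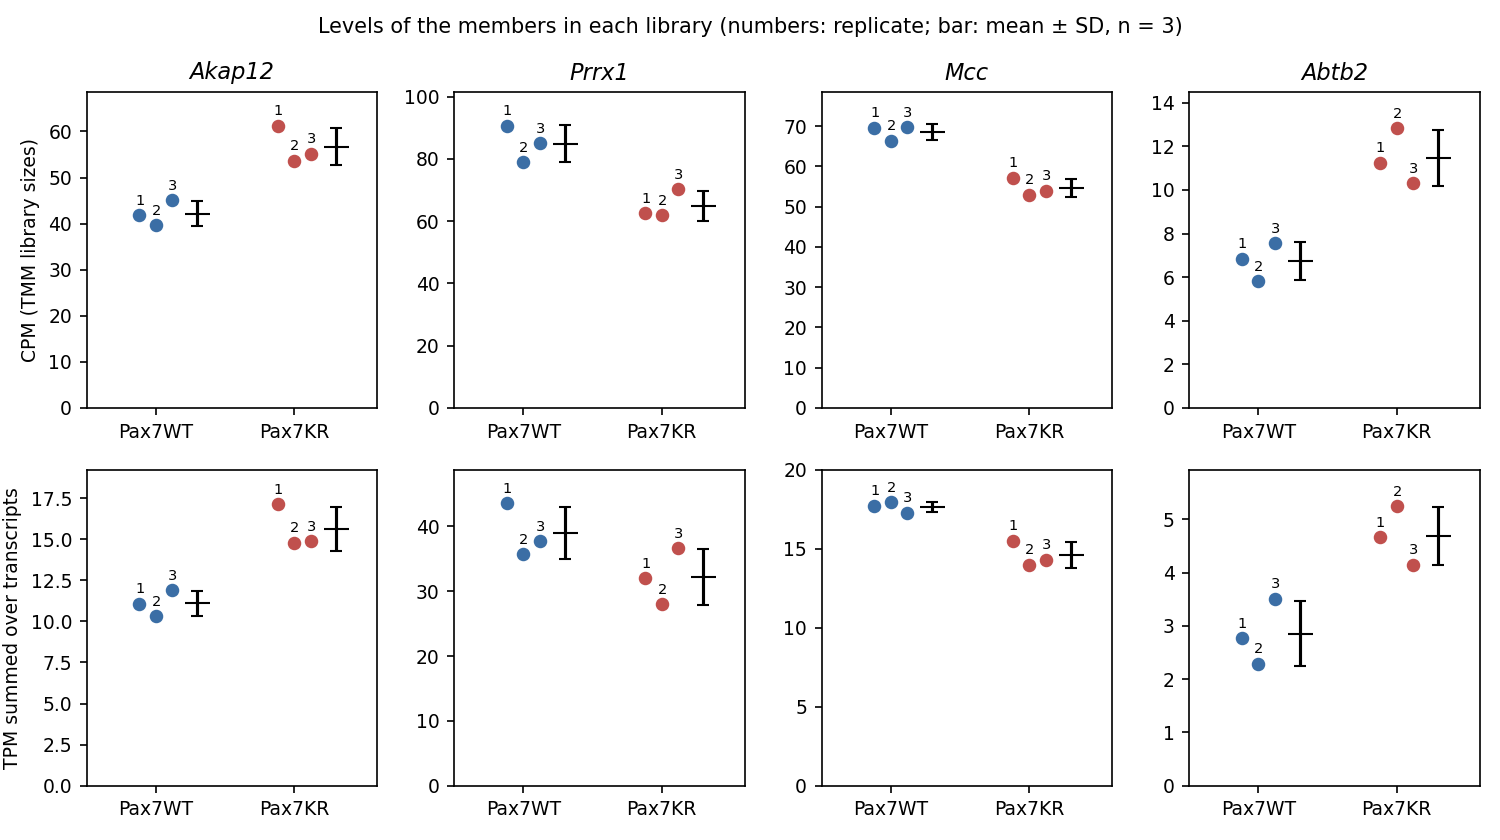
Levels of *Akap12*, *Prrx1*, *Mcc* and *Abtb2* in each library, as CPM (read counts scaled to library size, upper row) and as TPM (lower row), with replicate numbers over the points and mean ± SD bars (n = 3) beside them. The genotypes do not overlap in CPM for any of the 4, which is how they were chosen, whereas in TPM *Prrx1* of *Pax7KR* replicate 3 (36.7) lies above *Pax7WT* replicate 2 (35.7).

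*Akap12* (ENSMUSG00000038587) lies on the plus strand at chr10:4266380-4359470 of GRCm38 and spans 93.1 kb. It received 1138, 702 and 924 reads in the *Pax7WT* libraries and 1400, 1281 and 1167 in the *Pax7KR* libraries. Scaled to library size as CPM, these were 41.8, 39.6 and 45.0 in *Pax7WT* and 61.2, 53.7 and 55.2 in *Pax7KR*. The lowest *Pax7KR* library thus stood above the highest *Pax7WT* library, and *Pax7KR* replicate 1 was the highest of all. The means were 42.2 ± 2.72 and 56.7 ± 4.0 CPM (SD, n = 3), and the log2 fold change was 0.43 with a standard error of 0.079. In TPM the gap was also open, with 10.3 to 11.9 in *Pax7WT* and 14.8 to 17.1 in *Pax7KR*.

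The annotation gives *Akap12* a pair of protein-coding transcripts with separate first exons. *Akap12-201* encodes 1684 amino acids in 4 exons, and *Akap12-202* encodes 1579 amino acids and starts 81.4 kb further downstream. In all 6 libraries *Akap12-201* held 100% of the estimated reads, and *Akap12-202* and the non-coding *Akap12-203* were listed at 0. *Akap12-201* has 404 bases that no other *Akap12* transcript shares and *Akap12-202* has 140, and reads over those stretches can tell the transcripts apart. The genotype difference of *Akap12* was therefore that of a single transcript, the one from the upstream start site. None of the 31-base sequences of *Akap12* occurs in a transcript of another gene (0 of 6430).

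Endothelial cells also express *Akap12*, and the sort depleted them through CD31. The 10 endothelial markers summed to 134.9, 126.1 and 165.8 TPM in *Pax7WT* and to 172.9, 205.3 and 141.7 TPM in *Pax7KR*, so that the genotypes overlapped. *Tek*, which satellite cells express too, held 65.4 to 87.4 TPM of each sum. Of the 10 markers, 9 had a log2 fold change above 0 with a median of 0.386, none was at 0 in any library, and 0 had an unadjusted p under 0.05. In *Pax7WT*, both *Akap12* and the endothelial sum were lowest in replicate 2 and highest in replicate 3. In *Pax7KR*, *Akap12* was highest in replicate 1 and the endothelial sum in replicate 2. In bulk RNA, a change in the number of cells of a type and a change in RNA per cell cannot be told apart, and the part of endothelial RNA in the *Akap12* values was not tested. The 5 erythroid markers were all above 0 as well, with a median log2 fold change of 0.664 and sums of 719 to 1386 TPM in *Pax7WT* and 1264 to 2054 TPM in *Pax7KR*, and their part was not tested either.

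*Prrx1* (ENSMUSG00000026586) lies on the minus strand at chr1:163245119-163313710 and spans 68.6 kb. It received 2466, 1397 and 1744 reads in *Pax7WT* and 1429, 1476 and 1486 reads in *Pax7KR*. The CPM values were 90.6, 78.9 and 85.0 in *Pax7WT* and 62.5, 61.8 and 70.3 in *Pax7KR*. All 3 *Pax7KR* libraries were below all 3 *Pax7WT* libraries, and *Pax7KR* replicate 3 came closest to the wild type. The means were 84.8 ± 5.88 and 64.9 ± 4.69 CPM (SD, n = 3), and the log2 fold change was -0.39 with a standard error of 0.076.

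On the TPM scale this separation was lost. *Prrx1* stood at 43.5, 35.7 and 37.7 TPM in *Pax7WT* and at 32.0, 28.0 and 36.7 TPM in *Pax7KR*. *Pax7KR* replicate 3 was above *Pax7WT* replicate 2, although the means kept their order. TPM groups did not overlap for 2138 of the 17152 genes (12.5%), and *Prrx1* was the member that was not among them. The average effective length of the *Prrx1* transcripts, weighted by their abundance, was 3133 bases in *Pax7KR* replicate 3, the shortest of the 6 libraries, and 3728 bases in *Pax7KR* replicate 2, the longest.

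*Prrx1-201* encodes the long form of 245 amino acids, which ends with the OAR domain found in several paired-type homeodomain proteins, *Prrx1-202* encodes 217 amino acids and *Prrx1-204* encodes 200. The transcripts *Prrx1-201* and *Prrx1-204* have different 3' ends, and their coding sequences share their first 599 bases and then part. They are shown around that point, 5' to 3' on the gene's strand from the GRCm38 transcripts, to show how much of the protein the choice of 3' end decides. Capitals mark the bases after the point of divergence, through the stop codon.
Prrx1-201: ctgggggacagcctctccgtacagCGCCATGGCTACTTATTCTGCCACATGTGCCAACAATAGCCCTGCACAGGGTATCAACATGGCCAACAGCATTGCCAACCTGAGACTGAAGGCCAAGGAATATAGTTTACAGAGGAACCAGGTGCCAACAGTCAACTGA
Prrx1-204: ctgggggacagcctctccgtacagGTGA
After the shared part, *Prrx1-201* goes on for 139 coding bases and *Prrx1-204* stops within 4.

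*Prrx1-201* held 48.5%, 31.6% and 48.4% of the *Prrx1* TPM in *Pax7WT* and 45.7%, 52.5% and 38.5% in *Pax7KR*. *Prrx1-204* held 8.94%, 12.5% and 13.6% in *Pax7WT* and 11.4%, 14.7% and 11.9% in *Pax7KR*. Neither share separated the genotypes. *Prrx1-202* had reads only in *Pax7WT* replicate 2, where it held 17.4% of the TPM and *Prrx1-201* had its lowest share. Every base of *Prrx1-202* also lies in some other transcript of the gene.

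The rest of the *Prrx1* TPM came almost wholly from *Prrx1-205*, a transcript of 1335 bases with no annotated coding sequence, at 18.5, 13.7 and 14.1 TPM in *Pax7WT* and at 13.7, 9.17 and 18.2 TPM in *Pax7KR*. These values overlapped between genotypes, and the highest *Pax7KR* value was in replicate 3, the library in which the gene's total reached into the wild-type range. The 3 protein-coding transcripts together stood at 25.0, 22.0 and 23.4 TPM in *Pax7WT* and at 18.2, 18.9 and 18.5 TPM in *Pax7KR*. Estimated coding *Prrx1* RNA was thus lower in every *Pax7KR* library than in any *Pax7WT* library. The means were 23.5 ± 1.5 and 18.5 ± 0.306 TPM (SD, n = 3). Only 38 bases of *Prrx1-201* and 85 of *Prrx1-205* lie in no other transcript of the gene, so this split is uncertain. On these estimates the overlap of the total lay in the non-coding part, which is short and so counts for more in TPM. *Prrx1-205* took 14.0% of the gene's reads on average and 32.7% to 49.7% of its TPM, by library.

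**Figure D2:**
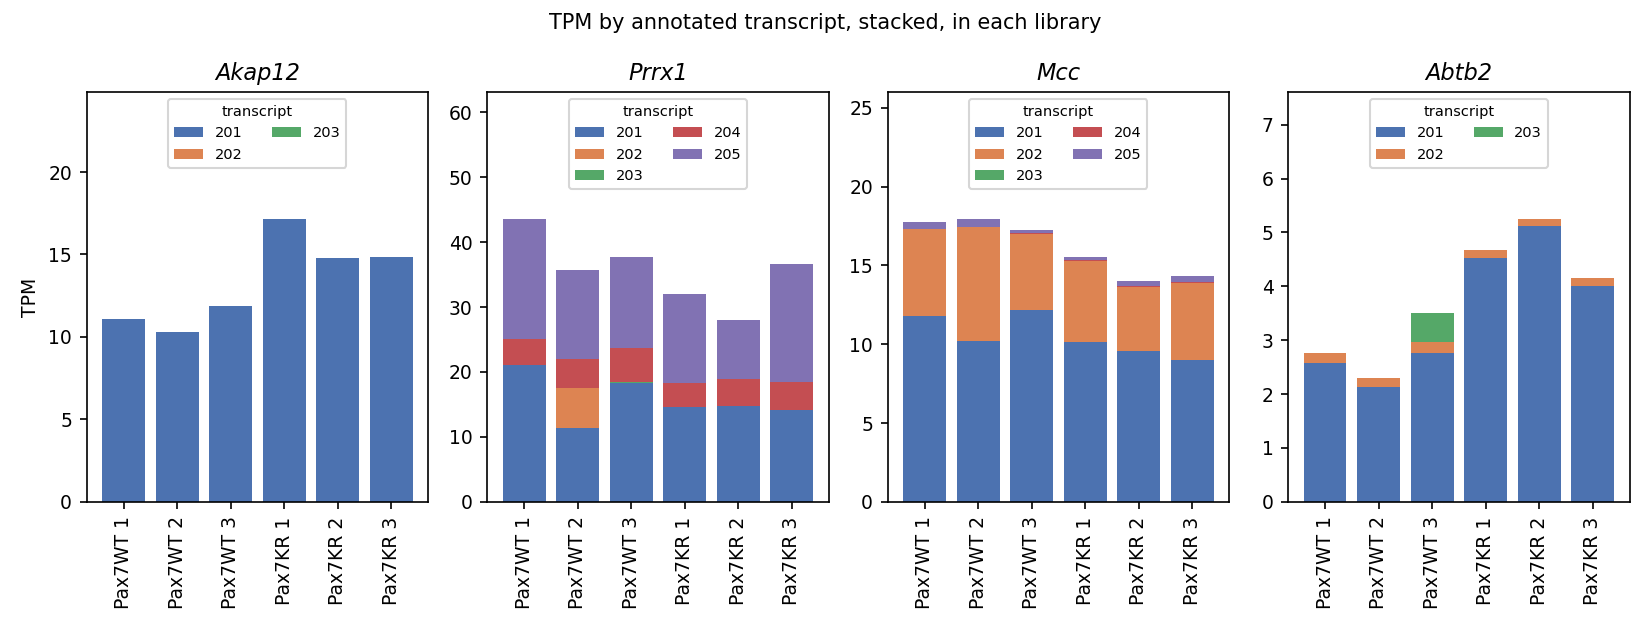
TPM of each annotated transcript of the 4 genes, stacked, in each of the 6 libraries, with transcripts named by the number after the gene symbol. *Akap12* is 1 transcript throughout, non-coding *Prrx1-205* reaches 18.2 TPM in *Pax7KR* replicate 3, *Mcc* is shared between 201 and 202, and *Abtb2-203* appears in *Pax7WT* replicate 3 alone.

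Fibro-adipogenic progenitors of muscle are a known site of *Prrx1* expression, and the sort depleted them through SCA-1. The 12 fibro-adipogenic markers summed to 1935 to 2067 TPM in *Pax7WT* and to 2072 to 2237 TPM in *Pax7KR*, without overlap and opposite in direction to *Prrx1*. Of the 12, 0 had an unadjusted p under 0.05. *Col3a1*, *Dpt* and *Gsn* carried most of the sum, whereas *Pdgfra*, the surface receptor that defines these progenitors, stood at 0.356 to 0.979 TPM and *Pi16* at 0.533 to 1.90 TPM. The log2 fold changes of the 12 were above 0 for 6 and below 0 for 6, with a median of -0.005, and were 0.28 for *Pdgfra* and -0.40 for *Pi16*. The 8 smooth muscle and pericyte markers all had log2 fold changes below 0, with a median of -0.13 and sums of 298.7 to 370.7 TPM in *Pax7WT* and 283.1 to 366.7 TPM in *Pax7KR*. The 5 tenocyte markers had a median of -0.207 (*Scx* -0.39, without overlap) and sums of 30.5 to 61.8 TPM in *Pax7WT* and 41.3 to 44.7 TPM in *Pax7KR*. The 6 Schwann and glial markers had a median of -0.133 (*Ngfr* -0.48, edgeR unadjusted p = 0.0185, adjusted p = 0.992, without overlap) and sums of 80.4 to 105.5 TPM and 62.1 to 99.8 TPM. The part of any of these 4 cell types in the *Prrx1* and *Mcc* values was not tested.

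*Mcc* (ENSMUSG00000071856) lies on the minus strand at chr18:44425060-44812182 and is the longest of the 4 genes, at 387.1 kb. It received 1893, 1176 and 1431 reads in *Pax7WT* and 1307, 1264 and 1141 reads in *Pax7KR*. The CPM values were 69.6, 66.4 and 69.7 in *Pax7WT* and 57.2, 52.9 and 54.0 in *Pax7KR*. The genotypes were far apart relative to the small spread within each, which the choice of members by small p-value favours. The means were 68.6 ± 1.89 and 54.7 ± 2.20 CPM (SD, n = 3), and the log2 fold change was -0.33 with a standard error of 0.066. The coefficient of variation of its CPM was 2.75% in *Pax7WT* and 4.03% in *Pax7KR*, the smallest of the 4 members in both genotypes. TPM gave the same picture, with 17.3 to 17.9 in *Pax7WT* and 14.0 to 15.5 in *Pax7KR*.

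Both protein-coding transcripts of *Mcc* were used. *Mcc-201* encodes 1003 amino acids in 19 exons and *Mcc-202* encodes 828 amino acids from a start site 149.9 kb away. *Mcc-201* held 66.4%, 57.0% and 70.6% of the TPM in *Pax7WT* and 65.5%, 68.5% and 63.1% in *Pax7KR*. *Mcc-202* held 31.4%, 40.1% and 27.9% in *Pax7WT* and 32.9%, 29.0% and 33.9% in *Pax7KR*. The split between them did not separate the genotypes (all bases of *Mcc-202* also lie in some other transcript of the gene). Together the coding transcripts stood at 17.0 to 17.4 TPM in *Pax7WT* and at 13.6 to 15.3 TPM in *Pax7KR*. Of the 31-base sequences of *Mcc*, 5.31% also occur in another gene, and the gene that shares the most of them is *A930012L18Rik*, an antisense gene within *Mcc* that received 7 to 28 reads per library.

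*Abtb2* (ENSMUSG00000032724) lies on the plus strand at chr2:103566310-103718423 and spans 152.1 kb. It had the fewest reads of the 4, with 186, 103 and 155 in *Pax7WT* and 257, 306 and 218 in *Pax7KR*. The CPM values were 6.84, 5.82 and 7.55 in *Pax7WT* and 11.2, 12.8 and 10.3 in *Pax7KR*. Every *Pax7KR* library was above every *Pax7WT* library. The means were 6.74 ± 0.874 and 11.5 ± 1.27 CPM (SD, n = 3), and the log2 fold change was 0.76 with a standard error of 0.159, the widest error and the largest difference among the 4. Its CPM varied by 13.0% in *Pax7WT* and 11.1% in *Pax7KR*.

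*Abtb2-201*, the only protein-coding transcript of the gene (1024 amino acids, 17 exons), held 92.8%, 92.7% and 78.5% of the TPM in *Pax7WT* and 96.8%, 97.4% and 96.7% in *Pax7KR*. The low share was in *Pax7WT* replicate 3, where the non-coding *Abtb2-203* of 709 bases held 15.6% of the TPM from 3.8 estimated reads. *Abtb2-201* alone stood at 2.57, 2.13 and 2.75 TPM in *Pax7WT* and at 4.52, 5.11 and 4.01 TPM in *Pax7KR*, with means of 2.48 ± 0.323 and 4.55 ± 0.549 TPM (SD, n = 3). The coding transcript was therefore further apart between the genotypes than the sum over all transcripts, in part through those few reads of *Abtb2-203*.

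PAX7 reaches DNA partly through its homeodomain, for which TAAT is the core sequence, and the start regions of *Prrx1* and *Abtb2* are shown to let these letters be read. They run from 250 bases before to 50 bases after the annotated start in RefSeq on GRCm38, 5' to 3' on the gene's strand, with TAAT in capitals on whichever strand it was found.
Prrx1, minus strand of chr1:163313601-163313900: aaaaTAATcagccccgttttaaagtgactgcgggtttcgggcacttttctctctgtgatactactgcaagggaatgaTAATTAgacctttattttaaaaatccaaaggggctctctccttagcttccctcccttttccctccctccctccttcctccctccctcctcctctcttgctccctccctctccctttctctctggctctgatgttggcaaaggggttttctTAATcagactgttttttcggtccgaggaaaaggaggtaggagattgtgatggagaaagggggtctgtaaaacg
Abtb2, plus strand of chr2:103566060-103566359: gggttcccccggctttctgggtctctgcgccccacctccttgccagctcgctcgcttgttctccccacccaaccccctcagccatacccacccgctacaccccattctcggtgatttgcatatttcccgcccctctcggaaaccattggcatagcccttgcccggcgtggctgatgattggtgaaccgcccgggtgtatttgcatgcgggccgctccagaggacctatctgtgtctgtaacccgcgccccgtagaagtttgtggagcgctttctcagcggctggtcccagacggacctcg
The *Prrx1* window held 4 matches to TAAT, of which the middle pair overlap on opposite strands, and the *Abtb2* window held 0. No window was available for *Akap12* or *Mcc*, so theirs were not examined. Over 32851 RefSeq promoter windows of the same length, 58% held at least 1 match and 11.6% held 4 or more. The palindromes of TAAT and its complement across a gap of 2 or 3 bases, which are found in 0.39% and 0.487% of all windows, were in neither, and nor was the E-box CANNTG, found in 72.3%. The *Prrx1* window had a GC content of 47.7% and the *Abtb2* window of 62.3%, on either side of the median of 52.7%.

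Partners of each member were examined from lists of genes chosen by function. The reference for them is the whole set of tested genes, in which 387 (2.26%) were higher and 416 (2.43%) lower at an unadjusted p under 0.05, around a median log2 fold change of -0.004. Over all tested genes, 8399 log2 fold changes were above 0 and 8753 below. In none of the 6 lists did a gene pass the adjusted threshold.

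For AKAP12, 14 of 17 other A-kinase anchoring proteins were tested, with 7 log2 fold changes above and 7 below 0 and a median of -0.009. *Akap13*, an anchor that also activates RhoA, was the single gene of the family with an unadjusted p under 0.05 and had the opposite sign to *Akap12* (174.9 ± 15.2 CPM in *Pax7WT*, 156.2 ± 10.5 CPM in *Pax7KR*, SD, n = 3, edgeR unadjusted p = 0.0453, adjusted p = 0.992). Of 23 genes for the signalling proteins that AKAP12 docks, 5 were above and 18 below 0, with a median of -0.05. *Prkaca*, the catalytic subunit of protein kinase A, had a log2 fold change of -0.06 ± 0.072 (SE), *Prkca* of protein kinase C -0.10 ± 0.122, and *Ppp3ca* of calcineurin 0.02 ± 0.066. The 1 gene of this list with an unadjusted p under 0.05 was *Prkar1b*, a weakly expressed regulatory subunit (2.36 ± 0.476 CPM in *Pax7WT*, 1.33 ± 0.414 CPM in *Pax7KR*, SD, n = 3, edgeR unadjusted p = 0.0366, adjusted p = 0.992).

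For PRRX1, 14 of 18 transcription factors of mesenchyme and the epithelial-mesenchymal transition were tested, and 0 had an unadjusted p under 0.05 in either direction (median log2 fold change -0.029). *Prrx2*, the close paralog of *Prrx1*, was expressed at 1.80, 2.26 and 1.27 CPM in *Pax7WT* and 1.62, 1.26 and 2.51 CPM in *Pax7KR*, with a log2 fold change of 0.01 ± 0.371 (SE). The error of *Prrx2* was nearly as large as the difference of *Prrx1*, so this low level could not have shown a difference of that size. *Zeb2*, an abundant repressor of epithelial genes, had a log2 fold change of -0.09 ± 0.101 (SE), and *Snai2* of -0.06 ± 0.084.

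For MCC, 23 of 24 genes of the Wnt/β-catenin pathway were tested (median log2 fold change 0.009). *Ctnnb1*, which encodes β-catenin itself, stood at 533.6 ± 26.3 CPM in *Pax7WT* and 536.9 ± 9.46 CPM in *Pax7KR* (SD, n = 3), and *Apc*, a scaffold of its destruction complex, at 137.7 ± 2.76 and 134.5 ± 2.23 CPM. The exception in the list was *Lrp6*, the Wnt co-receptor, at 423.5, 445.7 and 449.4 CPM in *Pax7WT* and 568.6, 584.3 and 538.2 CPM in *Pax7KR*. Its log2 fold change was 0.36 with a standard error of 0.062, and its unadjusted p of 6.65e-05 by edgeR was smaller than that of any of the 4 members, with an adjusted p of 0.354. The 5 genes for partners of MCC and its paralog had log2 fold changes of 0.01 to 0.50, and 0 had an unadjusted p under 0.05. Among them *Ushbp1*, the paralog, had 3.45 ± 0.796 CPM in *Pax7WT* and 4.84 ± 0.892 CPM in *Pax7KR* (SD, n = 3), of the opposite sign to *Mcc*, with a standard error of 0.251 around its log2 fold change of 0.50.

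For ABTB2, all 43 BTB adaptors and core subunits of the CUL3 ligase were tested, with 18 log2 fold changes above and 25 below 0 and a median of -0.019. *Abtb1* and *Btbd11*, the closest relatives of *Abtb2* with ankyrin repeats and BTB domains, had log2 fold changes of 0.06 ± 0.092 and 0.07 ± 0.185 (SE), and *Cul3* of -0.07 ± 0.064. Unadjusted p-values under 0.05 were found for *Klhl3* (17.3 ± 0.584 CPM in *Pax7WT*, 13.2 ± 0.448 CPM in *Pax7KR*, SD, n = 3, edgeR unadjusted p = 0.00269, adjusted p = 0.959), an adaptor that targets WNK kinases, and *Rhobtb3* (46.95 ± 3.54 and 38.95 ± 3.34 CPM, unadjusted p = 0.00831, adjusted p = 0.992). Both were lower in *Pax7KR*, against the direction of *Abtb2*.

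Of the genes that flank or overlap the members on the chromosome, 9 were tested and 0 had an unadjusted p under 0.05. *Zbtb2*, 7.6 kb from *Akap12*, had a log2 fold change of -0.10 ± 0.114 (SE), and *Mthfd1l*, 99.3 kb away on the other side, of 0.25 ± 0.173. *Gorab*, 71.2 kb from *Prrx1*, had a log2 fold change of 0.06 ± 0.121, and the next tested gene on the other side, *Fmo2*, lay 346.4 kb away at 0.68 ± 0.368. *Dcp2*, which ends 0.1 kb from *Mcc*, stood at 0.08 ± 0.082 and *Ythdc2* at -0.08 ± 0.074. *Nat10*, 2.8 kb from *Abtb2*, stood at -0.01 ± 0.077, and *Cat*, which encodes catalase, was at 58.7 ± 1.79 CPM in *Pax7WT* and 53.5 ± 1.14 CPM in *Pax7KR* (SD, n = 3), without overlap and with the opposite sign to *Abtb2*. The antisense *A930012L18Rik* within *Mcc* was below 1 CPM in both genotypes on average, and of the genes annotated within *Prrx1*, *Gm20471* and *Gm37644* had too few reads to be tested (0 to 4 per library).

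**Figure D3:**
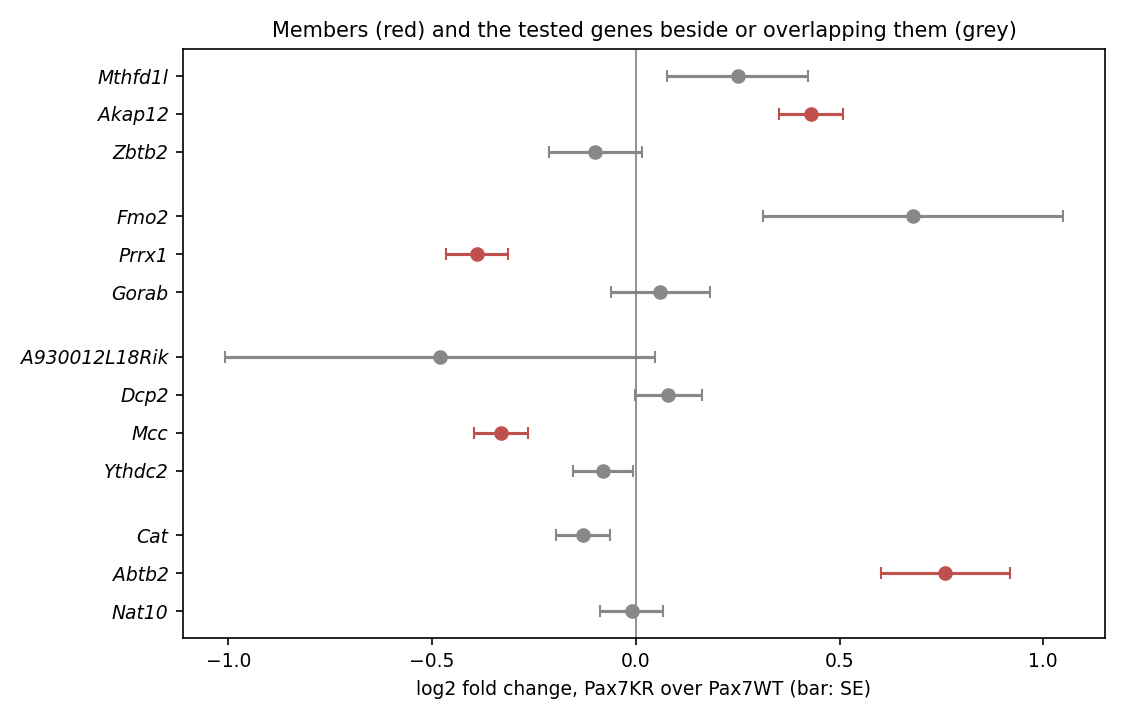
Log2 fold change of *Pax7KR* over *Pax7WT* for the 4 members (red) and the tested genes that overlap or flank them (grey), with bars of 1 standard error from edgeR. The neighbours of *Akap12*, *Mcc* and *Abtb2* lie nearer to 0 than the member, apart from the wide bar of *A930012L18Rik*, and *Fmo2* beside *Prrx1* has a wide bar on the opposite side of 0.

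The genes whose profile over the 6 libraries was most like that of each member were found by Pearson's r of log2(CPM + 1), which is given as a description since the libraries share the genotype difference that chose the members. For *Akap12* these were *Mocs2* (r = 0.994), *Sox7* (0.991) and *Snapc2* (0.985). *Mocs2*, which makes molybdenum cofactor, was at 39.1, 38.3 and 40.1 CPM in *Pax7WT* and 49.3, 44.9 and 46.0 CPM in *Pax7KR*. For *Prrx1* they were *Mcph1* (0.995), *Tmem233* (0.990) and *Ipmk* (0.989), and *Tmem233* was at 28.6, 22.4 and 24.6 CPM in *Pax7WT* and 17.5, 17.2 and 20.1 CPM in *Pax7KR*. *Tmem233* repeated the order of the libraries seen for *Prrx1*. For *Mcc* they were *Zfp322a* (0.992), *Fbxo41* (0.986) and *Parp4* (0.982), and for *Abtb2* they were *Gm47322* (0.999), *Klhdc10* (0.998) and *Rfc1* (0.987). *Klhdc10*, a Kelch-domain substrate receptor of a CUL2 ubiquitin ligase, was at 73.1, 71.1 and 73.7 CPM in *Pax7WT* and 79.1, 81.1 and 77.7 CPM in *Pax7KR*, so that its levels followed the same order of libraries as *Abtb2* over a narrower range.

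The 4 members kept their direction under all 14 other settings of the analysis. Their choice for normalised counts without overlap between the genotypes had largely fixed this, so it is no independent check. Leaving out 1 library at a time gave log2 fold changes of 0.37 to 0.48 for *Akap12* and -0.45 to -0.34 for *Prrx1*. The ranges for *Mcc* and *Abtb2* were -0.36 to -0.30 and 0.67 to 0.85. Whether the members passed an adjusted p of 0.1 depended on the tool. DESeq2 on the same counts placed all 4 among 30 genes (0.175% of those tested) below the threshold, with adjusted p-values of 0.028 for *Akap12*, 0.039 for *Prrx1*, 0.048 for *Abtb2* and 0.082 for *Mcc*. Without the filter on low counts, edgeR also placed all 4 among 157 genes (0.652% of 24068). Without *Pax7KR* replicate 3, it placed *Prrx1* (adjusted p = 0.091) and no other member among 32 genes (0.189%). With the average transcript length of each gene as an offset, DESeq2 placed 45 genes (0.262%) below it, of which *Akap12* alone was a member (adjusted p = 0.063), while *Mcc* stood at 0.12, *Abtb2* at 0.36 and *Prrx1* at 0.70. In edgeR the same offset passed 0 genes. It raised the unadjusted p to 0.00112 for *Akap12*, 0.00181 for *Mcc*, 0.0067 for *Abtb2* and 0.017 for *Prrx1*, with adjusted p-values of 0.762 to 0.962. The offset moved the log2 fold change of *Prrx1* from -0.39 to -0.34 and that of *Abtb2* from 0.76 to 0.65. It left the log2 fold change of *Akap12*, whose reads come from 1 transcript, at 0.43. When the reads of protein-coding transcripts alone were counted for the members, the log2 fold change was -0.41 for *Prrx1* and 0.82 for *Abtb2*.

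**Figure D4:**
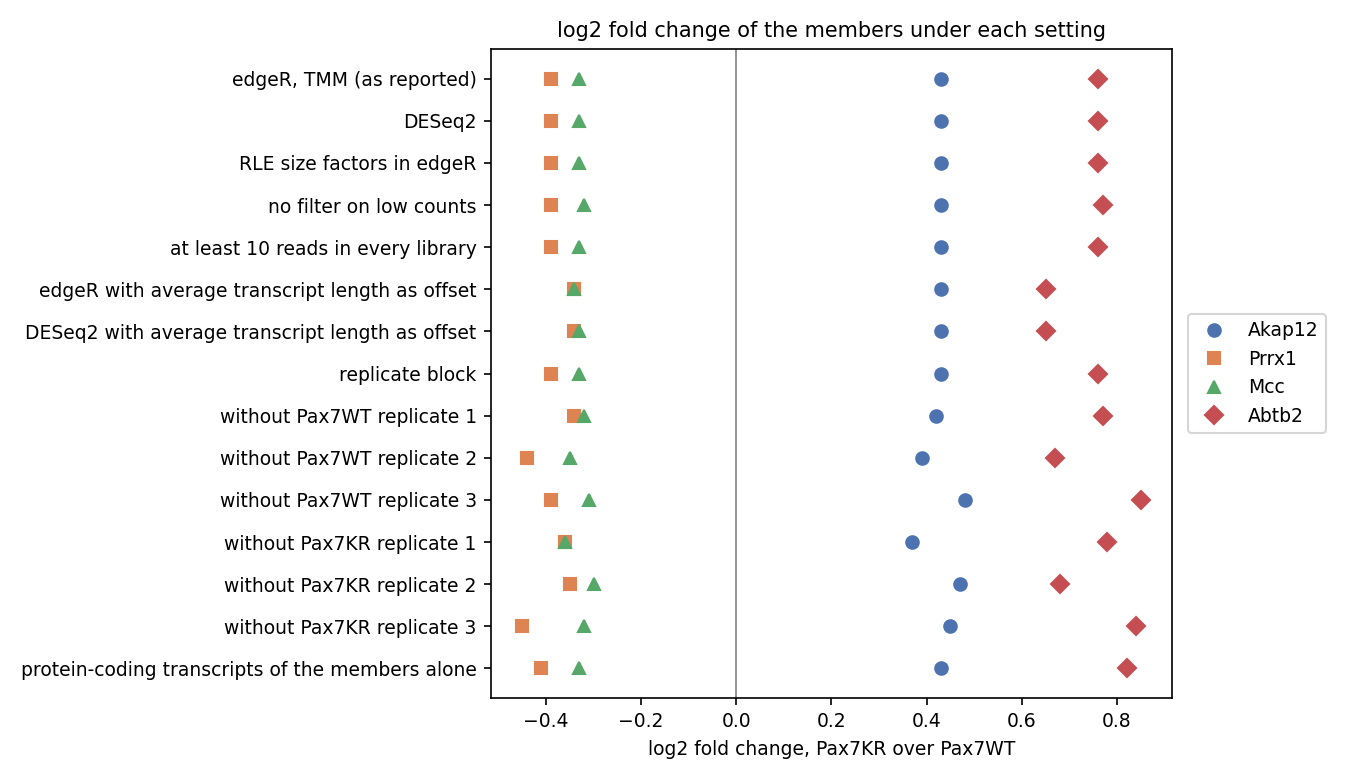
Log2 fold change of *Pax7KR* over *Pax7WT* of the 4 members (x axis) under each setting of the analysis (y axis, 1 row per setting, no error bars). *Akap12* and *Abtb2* stay above 0 and *Prrx1* and *Mcc* below 0 in every row, directions largely fixed by their choice for normalised counts without overlap. The length offset draws *Abtb2* from 0.76 to 0.65 and *Prrx1* from -0.39 to -0.34.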

How the data were processed

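RNA-sequencing reads of 3 *Pax7WT* and 3 *Pax7KR* samples, grouped by their labels, were quantified by the authors with Salmon (version 1.3.0) against GENCODE transcripts of GRCm38. The authors deposited, per transcript, an estimated count that is not normalized and a TPM value, with effective lengths. Their table of the genotype comparison by DESeq2 (version 1.28.1), with fold changes and p-values, was not used. Estimated counts were summed per gene through an earlier GENCODE release, which matched 99.15% of 140992 transcripts (the others held 0.592% to 0.634% of a library's reads and were left out), and rounded. The test, for genes that reached 5 reads in at least 2 libraries, was edgeR's robust quasi-likelihood test on genotype with TMM normalization (version 4.0.16) in R (version 4.3.3), with Benjamini-Hochberg adjustment over all 17152 genes and a cut-off of 0.1. CPM values use TMM library sizes. Levels between genes were compared by deposited TPM, summed per gene. The step was tested on simulated data.

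Genes named are the 4 members, from each list up to 4 genes with the smallest p and known direct partners, the 3 genes most like each member in profile, and neighbours. The members and lists were chosen with earlier results of these data known. Alternatives were DESeq2 (version 1.42.0), other size factors and filters, a length offset, a replicate block and leaving out each library. Counting only protein-coding transcripts was chosen after seeing the data. Depths were 27908054, 17822367 and 20909363 reads in *Pax7WT* and 22489120, 23810555 and 21307368 in *Pax7KR*.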

Additional observations from a re-analysis of the deposited data

How the results depend on the processing

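The adjusted threshold of 0.1, which 0 genes passed in edgeR, was passed by 30 genes in DESeq2, 45 in DESeq2 with a length offset, 157 without a filter on low counts (0.652% of those tested, with all 4 members among them) and 1 to 32 when a library was left out. The 32 genes (0.189%) came without *Pax7KR* replicate 3 and included *Prrx1* (adjusted p = 0.091), and no other library left out brought in a member. Genes with an unadjusted p under 0.05 numbered 1373 without a filter and 533 to 1048 with a library left out, the lowest without *Pax7KR* replicate 2. The labels number the replicates alike, but the deviations of same-numbered libraries correlated at 0.00467, 0.0272 and -0.0442, so the numbers were not read as pairs. A fit with the replicate block passed 13 genes (0.0758%), of which 0 were members. All 56 values of the members' log2 fold changes under alternatives kept their direction, which the choice for normalised counts without overlap had largely fixed. Of 84 list medians under alternatives, 77 moved by less than the spread between replicates. The others were 0.045 for the AKAP family (DESeq2 with length offset), -0.036 for Wnt/β-catenin genes and -0.049 for BTB adaptors (both length offsets), and, with a library left out, ranges of -0.061 to 0.102 for mesenchymal transcription factors and -0.045 to -0.011 for BTB adaptors. As shares of reads in place of TPM, which count short transcripts for more, *Prrx1-201* held 59.8%, *Prrx1-205* 14.0% and *Mcc-201* 81.0% on average.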
